A study of Homo sapiens with 30 samples.

Results

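The mitochondrial ribosomal protein genes are the nuclear genes that encode the protein shell of the ribosome inside mitochondria. Earlier results of these data were known when this set was picked. Its members were defined by name alone, as protein-coding genes whose symbol is MRPL or MRPS followed by digits and an optional letter. This gave 78 genes of the 60107 in the count table, of which 49 (MRPL) are named for the large subunit and 29 (MRPS) for the small subunit. The cells were HepG2, a long-established line from a human liver tumour. They received an LNA oligonucleotide by lipofection and, 24 h later, either 10 µM Sorafenib, which inhibits several kinases, or the vehicle DMSO (dimethyl sulfoxide). The 30 libraries formed 10 groups of 3 replicates. At 6 h of treatment the groups were IC_DMSO, IC_sorafenib, I200c_DMSO and I200c_sorafenib, where IC is the inhibitor control and I200c the inhibitor of miR-200c-3p. At 24 h they were MC_DMSO, MC_sorafenib, M222_DMSO, M222_sorafenib, M512_DMSO and M512_sorafenib, where MC is the mimic control and M222 is the miR-222-5p mimic and M512 the miR-512-3p mimic. Every group had therefore passed through a transfection, and treatment time and type of oligonucleotide changed together between both sets. The study describes the replicates as biological and independent, without saying whether they were separate cultures or days, so p-values measure the spread between these samples, which may in part be technical.

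Mitochondrial ribosomes translate the few proteins encoded by mitochondrial DNA, all of which are subunits of oxidative phosphorylation complexes. The large subunit forms peptide bonds and holds the exit tunnel, which lies against the inner membrane. The small subunit reads the messenger RNA. Both are built from RNA encoded in mitochondrial DNA and from proteins made in the cytosol and imported, so their assembly needs the output of both genomes. Liver cells are rich in mitochondria. The symbols do not always match the place of the protein. MRPS18A and MRPS30 lie in the large subunit, and the product of MRPS36 is now known as a component of the α-ketoglutarate dehydrogenase complex. The groups below follow the symbols, and medians with these 3 genes moved are given where they matter.

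Libraries were of the QuantSeq 3′ type, which gives about one read for each transcript near its 3′ end, so levels are not divided by gene length. Total counts were between 3938764 and 9657063 per library. Levels are given in CPM, the count relative to the library total after TMM scaling, which corrects the total for differences in composition. The members held 0.538% to 0.675% of the counts of a library. Of the hepatic markers (9 genes, among them ALB, AFP and HNF4A), none was at 0 in any group, whereas 4 to 6 of 10 markers of other liver cells had no count in a group. COL1A2, VWF and STAB2 had none in any library. The library that stood apart most was M512_sorafenib replicate 2. In it, 12% of 8179 genes with a mean of at least 10 CPM lay over 1 log2 unit from the mean of the other 2 libraries of its group, and 1 member (MRPL46) was higher and 11 of 73 members lower by that measure. In M512_sorafenib replicate 3 the same was seen for 9 members, all higher, and 10.4% of genes. In MC_DMSO replicate 3 there were 8 members (5 higher, 3 lower) and 5.66% of genes.

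The promoters of the members shared short words. In RefSeq sequences on GRCh38.p14, which ran from 250 bases before to 50 bases after the start and were found for 69 of the 78 members, the ETS and GABP word CCGGAAG stood on either strand in 40.5% of large-subunit and 44.4% of small-subunit promoters. It stood in 10.7% of all 27305 promoters and 14.4% of those of coding genes. The YY1 word AAGATGGCG stood in 19% and 18.5%, against 1.85% of all promoters and 2.8% of coding ones. GABP, YY1 and NRF1 are transcription factors known for driving nuclear genes of mitochondrial proteins. The NRF1 core GCATGCGC was found in 9.52% and 7.41%, against 3.27% and 4.25%. The GC box GGGCGG of SP1 stood in 54.8% of the large and 70.4% of the small subunit (44.6% of all, 59.2% of coding promoters), and CCAAT, the NFY box, in 26.2% and 33.3% (35.7% and 36.6%). CCGGAAG and AAGATGGCG can share the letters AAG, and a match is a description of sequence, not a bound site. A pair of promoters is shown because one belongs to a member that passed the test with Sorafenib and the other to the most abundant member, and because together they hold the 3 words. Capitals mark CCGGAAG in MRPL47 (chr3:179604589-179604888, minus strand), and GCATGCGC and AAGATGGCG in MRPS18B (chr6:30617590-30617889, plus strand).
MRPL47: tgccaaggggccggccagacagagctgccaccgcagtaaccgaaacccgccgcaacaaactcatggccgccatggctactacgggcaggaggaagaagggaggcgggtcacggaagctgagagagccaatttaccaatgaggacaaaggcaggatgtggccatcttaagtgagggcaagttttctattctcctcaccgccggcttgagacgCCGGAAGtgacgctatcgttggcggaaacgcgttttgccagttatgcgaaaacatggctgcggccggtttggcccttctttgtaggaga
MRPS18B: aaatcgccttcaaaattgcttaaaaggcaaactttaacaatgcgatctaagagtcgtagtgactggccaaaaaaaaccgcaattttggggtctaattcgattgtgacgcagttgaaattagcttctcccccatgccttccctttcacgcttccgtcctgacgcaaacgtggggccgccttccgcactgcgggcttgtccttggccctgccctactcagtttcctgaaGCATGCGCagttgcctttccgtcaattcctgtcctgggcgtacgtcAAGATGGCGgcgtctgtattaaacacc
The 29 members with the ETS word had a median level of 78.9 CPM and the 40 without it 62.2 CPM. Those with the YY1 word (13) had 47.4 CPM, against 76.4 CPM for 56 without it.

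Each miRNA used can pair through its seed, bases 2 to 8, with a 7-base word in a messenger. The mature sequences (RefSeq, GRCh38.p14) are shown with the seed in capitals, since the sites below are its complement.
miR-200c-3p: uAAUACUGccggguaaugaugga
miR-222-5p: cUCAGUAGccaguguagauccu
miR-512-3p: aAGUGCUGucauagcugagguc
In the annotated 3′ UTRs of the members (GENCODE 44, GRCh38), CTACTGA, the site of miR-222-5p, was found once each in MRPL16 and MRPL30. CAGCACT, the site of miR-512-3p, was found 22 times in 15 members, and CAGTATT, the site of miR-200c-3p, 8 times in 6 members. Sites are shown with their flanks and the site in capitals, namely both of miR-222-5p and the miR-512-3p site of the MRPS10 messenger.
MRPL16: gtatataggCTACTGAaagaa
MRPL30: cccccatctCTACTGAaaata
MRPS10: ctttacatcCAGCACTgtagt

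The levels of the members spread over a wide range. Of the 78 genes, 5 had a mean under 10 CPM over the 30 libraries, 52 between 10 and 100 CPM and 21 over 100 CPM. The median was 61.8 CPM for the large and 72.9 CPM for the small subunit. MRPS18B had the highest level by far, 310 CPM, with every library between 215 and 476. It is one of 3 paralogs that each fill one position of the ribosome, and the other two were lower, MRPS18C at 98.1 CPM and MRPS18A at 43.2 CPM. No library of MRPS18C (75.7 to 118 CPM) reached MRPS18B or fell to the highest of MRPS18A (63 CPM). Next came MRPS21 at 185 CPM and, in the large subunit, MRPL27, a protein near the peptidyl transferase centre, at 179 CPM and MRPL21 at 178 CPM. The libraries of MRPS21 (136 to 225), MRPL27 (133 to 278) and MRPL21 (119 to 275) overlapped, so these 3 had no order. At the other end, above MRPS24, stood MRPL53 with 2.93 CPM, MRPL28 with 6.18 CPM, MRPL23 with 8.19 CPM, MRPL39 with 9.92 CPM and MRPS28 with 10.6 CPM.

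MRPS24 had the lowest level, 0.674 CPM and 119 counts in all 30 libraries, and was the one member that failed the filter on low counts. Its libraries ranged from 0 to 5.39 CPM, where a count of 0 allows up to 0.311 to 0.762 CPM, a limit that covers counting error only. It shares its strand with the readthrough gene URGCP-MRPS24, and reads in such an overlap may be left out of the count. In all, 11 members overlap another coding gene on their strand. Their median level was 24.9 CPM, against 74 CPM for the other 67, and the part of the overlap in this gap was not tested. Pseudogene copies took few reads. The 78 annotated pseudogenes of the members held 890 counts, or 0.0735% of the members' counts, and MRPS31, with MRPS31P4 at 9.27% and MRPS31P5 at 2.93% of its own counts, was the one parent whose copies passed 10%. Between replicates, the median coefficient of variation was 16.5%. It was lowest for MRPL11 (6.52%), a protein of the GTPase-associated region, and highest among tested members for MRPL39 (61%).

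**Figure D1:**
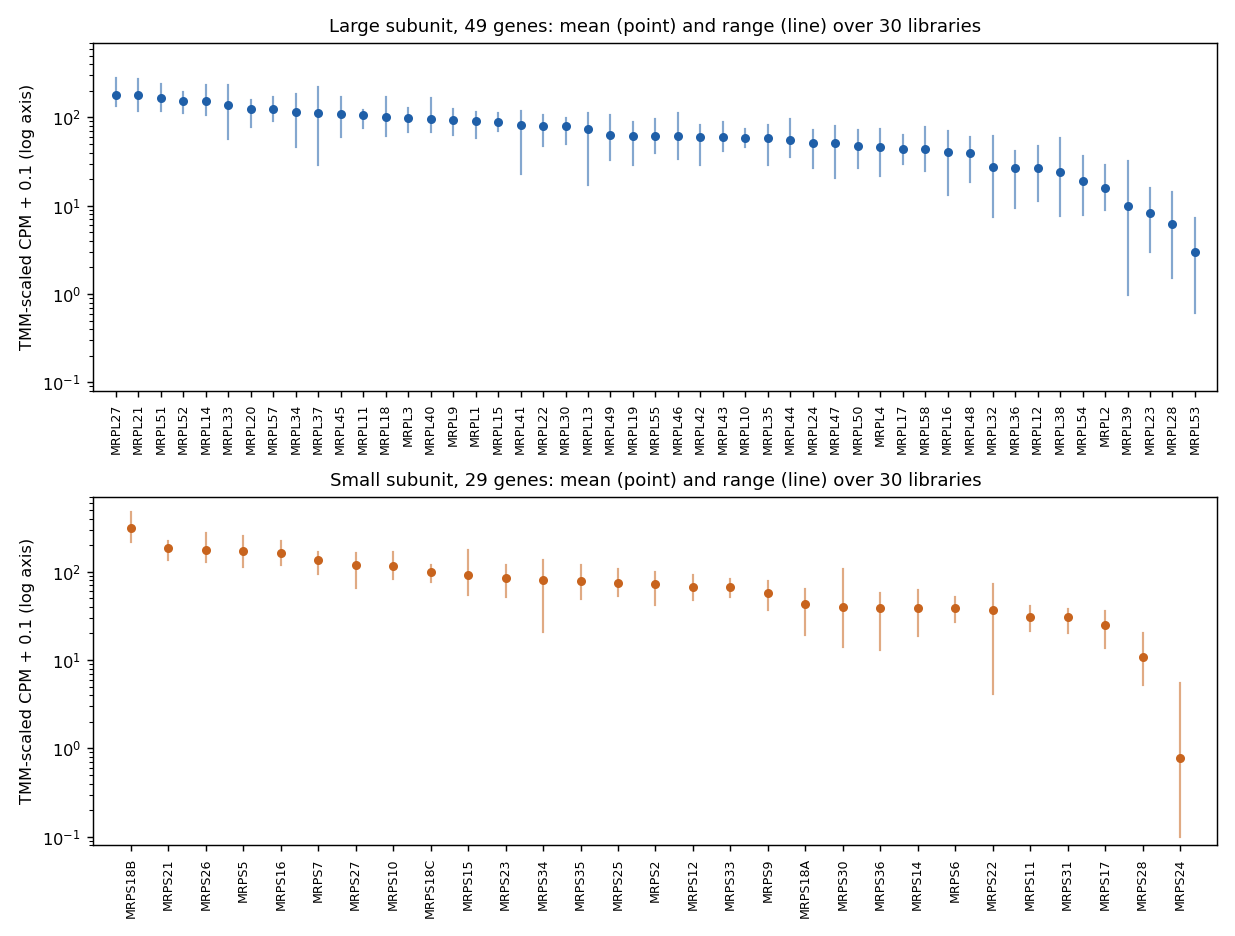
Level of each member in TMM-scaled CPM (log axis, 0.1 added), ordered by its mean, with the large subunit above and the small subunit below. Points are means and lines run from the lowest to the highest of 30 libraries. MRPS18B stands above all others and MRPS24 below them.

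Summed over its 49 members, the large subunit stood above the small one, with 29, in every library, by a ratio of 1.25 to 1.57. The sums are not per gene, and the median level of a member was lower in the large subunit (61.8 against 72.9 CPM). With Sorafenib the ratio of the sums moved little. Its log2 value changed by -0.030 in IC, -0.047 in I200c, -0.032 in MC and -0.031 in M512, and by 0.073 in M222. The SD between replicates was 0.037, 0.049, 0.091 and 0.105 in the first 4 and 0.049 in M222, so the change passed 1 SD in M222 alone. The groups overlapped, at a ratio of 1.39 to 1.5 in DMSO and 1.46 to 1.54 in Sorafenib. Within the pairs that the replicate numbers form in M222, the log2 ratio was higher with Sorafenib in 3 of 3, from 0.581 to 0.624, from 0.473 to 0.590 and from 0.490 to 0.548, a number of pairs too small for an exact test to pass. A change of balance between subunits larger than the spread was not seen in the other 4.

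The totals themselves were close as well. The large subunit summed to 3431, 3596 and 3688 CPM in IC_DMSO and to 3617, 3644 and 3798 in IC_sorafenib. These overlapped. In I200c it was 3387, 3321 and 3615 in DMSO and 3611, 3620 and 3846 in Sorafenib, again with an overlap. In MC it was 3046, 3322 and 3195 against 3194, 3599 and 3684. In M222 the groups did not overlap, with 3426, 3655 and 3649 in DMSO and 3765, 3738 and 3896 in Sorafenib. In M512 they did, with 3572, 3595 and 3939 against 3540, 3813 and 4396. For the small subunit other transfections separated. It was 2381 to 2449 CPM in IC_DMSO and 2509 to 2571 in IC_sorafenib, 2161 to 2301 and 2463 to 2517 in I200c, and 2127 to 2438 and 2549 to 2568 in MC. In these 3 transfections no Sorafenib library overlapped the DMSO libraries, while in M222 (2290 to 2633, and 2443 to 2665) and M512 (2462 to 2587, and 2501 to 2900) they did. The order depended on scaling. As a share of the total counts, all members together overlapped between DMSO and Sorafenib in IC, I200c, MC and M512, and in M222 they were lower with Sorafenib, at 0.591% to 0.61% against 0.612% to 0.633%. In such bulk samples, fewer cells of a type and less RNA per cell cannot be told apart.

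**Figure D2:**
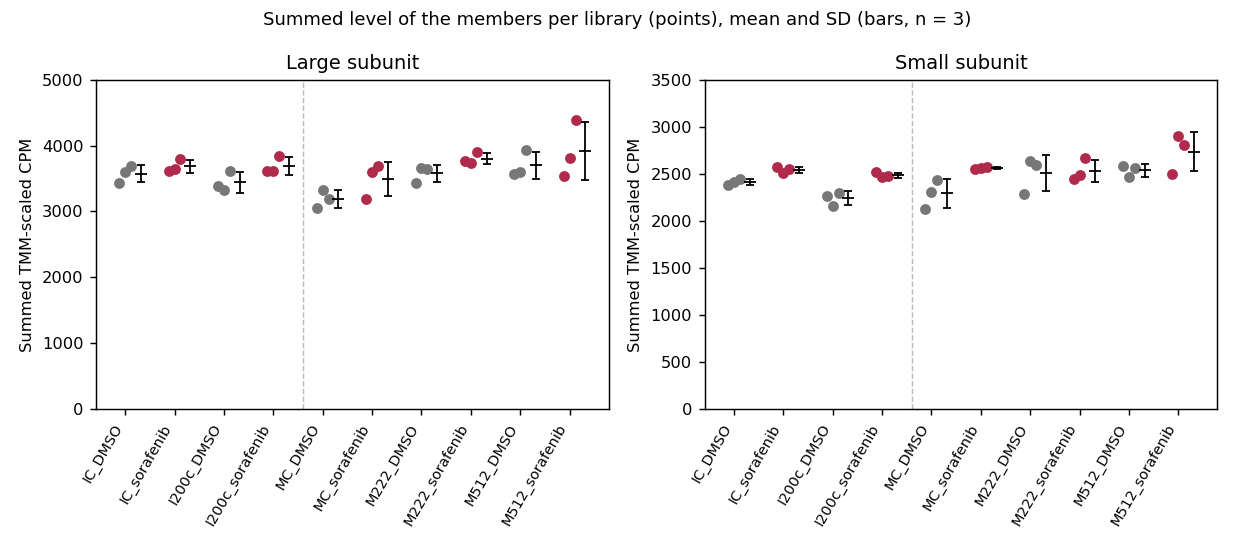
Summed TMM-scaled CPM of the large (left) and small (right) subunit members in each library, with grey points for DMSO and red points for Sorafenib. Bars give mean and SD (n = 3), and a dashed line parts 6 h from 24 h. All groups of the large subunit lie between 3046 and 4396 CPM.

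The effect of Sorafenib on single members was small at 6 h. Of 77 members tested, none was called in IC by the edgeR quasi-likelihood test with Benjamini-Hochberg adjustment over all genes, at an adjusted p under 0.05. Of all genes, 0.0314% were called higher and 0.00785% lower there. At an unadjusted edgeR p under 0.05 there was 1 member, MRPS6 (log2 fold change 0.38), and DESeq2 called 0. That was 1.3% of members, against 1.57% of genes higher and 2.21% lower. The median change was 0.05 in the large and 0.03 in the small subunit, the latter -0.005 with total-count scaling, against 0.00 for all genes. For 71 of 77 members the 95% interval of the change lay within 1 log2 unit either way. The libraries of both groups did not overlap for 6 members higher and 1 lower, or 7.79% and 1.3%, where all genes gave 6.31% and 6.54%.

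In I200c edgeR called no member either, where 0.911% of genes were called higher and 1.37% lower. Unadjusted, 5 members had an edgeR p under 0.05, all with higher values (6.49%, against 6.99% of genes higher and 8.28% lower), and DESeq2 called MRPS5 (0.44, adjusted p 0.0384). MRPS5 is a small-subunit protein near the entry of the messenger. It stood at 114, 140 and 135 CPM in DMSO and at 181, 182 and 168 CPM in Sorafenib, with no overlap (edgeR, Benjamini-Hochberg adjusted p 0.109). The medians were 0.12 for the large and 0.18 for the small subunit, and 53 of 77 members (68.8%) had a value above 0, against 50.5% of all genes. Without overlap there were 9 members higher and 0 lower (11.7% and 0%), against 8.71% and 8.68% of genes. The small-subunit median was 0.09 without I200c_DMSO replicate 2, the library in which all members together had the smallest share of counts (0.538%). In that fit MRPL48 was the only member called (0.92, adjusted p 0.0253, edgeR). The share of all genes called by DESeq2 or with a library left out is not given, here and below. Such calls are therefore not set against all genes.

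At 24 h in MC edgeR called no member, where 1.8% of genes were called higher and 0.793% lower. Unadjusted, 8 members had an edgeR p under 0.05, all with higher values (10.4% of members, against 9.23% of genes higher and 7.63% lower). DESeq2 called MRPS30. The median was 0.15 for the small subunit and 0.01 for the large one, which turned to -0.015 with RLE size factors and -0.094 with total counts. Without overlap there were 13 members higher and 0 lower (16.9% and 0%), against 12.8% and 12.1% of all genes. The closest to a call was MRPS30, which stood at 22.4, 30.2 and 26 CPM in DMSO and at 52.7, 42.8 and 66.1 CPM in Sorafenib. Every Sorafenib library was above every DMSO library (log2 fold change 1.05, SE 0.31, adjusted p 0.0673 by edgeR with Benjamini-Hochberg adjustment). Without MC_sorafenib replicate 2 it was called (1.21, adjusted p 0.0376). MRPS22, whose mutations cause a deficiency of oxidative phosphorylation, had a log2 fold change of 1.16 (unadjusted edgeR p 0.0189), from 22.5, 26.3 and 4.05 CPM to 36.7, 33 and 46.8 CPM. The lowest of these, MC_DMSO replicate 3, was named above among the libraries that stood apart.

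In M222 edgeR called 1 member, MRPL47, where 2.82% of genes were called higher and 1.56% lower. MRPL47 (ENSG00000136522, chr3:179588285-179604649, minus strand, GRCh38) is the mitochondrial counterpart of the bacterial ribosomal protein uL29, which sits beside the exit tunnel. It rose from 20.7, 32.7 and 33.8 CPM in DMSO to 76.3, 59.3 and 54.4 CPM in Sorafenib. The lowest Sorafenib library was above the highest DMSO library (log2 fold change 1.13, SE 0.30, edgeR, Benjamini-Hochberg adjusted p 0.0277). Its DMSO level was the lowest of all 10 groups, 29.1 ± 7.29 CPM (SD, n = 3), while MC_DMSO had 41.2 ± 6.02 CPM and the Sorafenib groups of MC and M222 had 60 ± 9.51 and 63.3 ± 11.5 CPM. In MC the change was 0.55 (95% interval -0.05 to 1.15), and the difference between the 2 changes was 0.58 (95% interval -0.28 to 1.43), so a change particular to M222 was not shown. The call was lost without M222_DMSO replicate 1 (0.93, adjusted p 0.131), M222_DMSO replicate 3 (1.29, 0.06) or M222_sorafenib replicate 1 (1.00, 0.137), and with total-count scaling (1.03, 0.0531). The main test did not use the pairs that the replicate numbers form in M222. With the replicate block the value was 1.15 (edgeR, adjusted p 0.0195).

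The subunits differed in their medians in M222, 0.13 for the large and -0.10 for the small subunit, with -0.04 for all genes. Of the large-subunit members 27 of 49 had values above 0 and of the small-subunit members 10 of 28. The small-subunit median was above 0, at 0.02, without M222_sorafenib replicate 1 and 0.005 without M222_DMSO replicate 2. Without overlap there were 11 members higher and 12 lower (14.3% and 15.6%), against 13.9% and 12.9% of genes. Unadjusted, 6 members had higher and 7 lower values at an edgeR p under 0.05 (7.79% and 9.09%, against 9.97% and 9.14% of genes). MRPL28, first described as a melanoma antigen, went from 10.3, 3.38 and 10.8 CPM to 1.9, 3.63 and 2.39 CPM, with an overlap, and MRPL53 from 7.25, 3.84 and 3.47 to 0.634, 2.72 and 0.513 CPM, without one. Their log2 fold changes of -1.66 and -1.96 were the lowest of the 77 members and did not pass (adjusted p 0.15 and 0.213, edgeR with Benjamini-Hochberg adjustment), and some of these levels are near the limit of a few counts.

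In M512 edgeR called 2 members, where 5.34% of genes were called higher and 4.62% lower. MRPL44 (ENSG00000135900, chr2:223957463-223967714, plus strand), a protein with a fold like that of RNase III, rose from 41.6, 44.8 and 60.6 CPM to 69.1, 80.2 and 94.9 CPM. The groups did not overlap (log2 fold change 0.73, SE 0.23, edgeR, Benjamini-Hochberg adjusted p 0.0437). MRPL45 (ENSG00000278845, chr17:38297023-38323217, plus strand), which anchors the ribosome to the inner membrane, fell from 146, 146 and 168 CPM to 77.2, 64.2 and 123 CPM. Here too the groups did not overlap (log2 fold change -0.80, SE 0.23, edgeR, Benjamini-Hochberg adjusted p 0.0294). The called members were 1.3% in each direction, under the shares of all genes.

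MRPL44 stood higher with Sorafenib at 24 h in the other transfections as well. It was 47.6, 37.4 and 44.9 CPM in MC_DMSO and 61.6, 54.1 and 88.2 CPM in MC_sorafenib, with no overlap (0.65, adjusted p 0.132), and in M222 the change was 0.43 (adjusted p 0.323, both edgeR with Benjamini-Hochberg adjustment). At 6 h it was 0.26 in IC and 0.14 in I200c. MRPL45 differed in that its M512_DMSO libraries were high. They lay above all 9 libraries of the other 24 h groups in DMSO or MC_sorafenib, whose highest was 113 CPM, and against MC_DMSO they were at a log2 difference of 0.73 (unadjusted edgeR p 0.00473, adjusted p 0.192). In Sorafenib M512 and MC differed by -0.03 (95% interval -0.52 to 0.45). The change of MRPL45 with Sorafenib was -0.04 in MC and 0.27 in M222, and its difference between M512 and MC was -0.76 (unadjusted edgeR p 0.0301, adjusted p 0.955). Both M512 comparisons and this difference use the same M512_DMSO libraries.

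Both calls in M512 depended on single libraries. MRPL44 passed in 5 of 12 other settings (log2 fold change 0.55 to 0.95, adjusted p 0.0146 to 0.193) and MRPL45 in 6 of 12 (-1.11 to -0.62, adjusted p 0.00484 to 0.129), all by edgeR or DESeq2. MRPL44 was lost without M512_DMSO replicate 1 or 2 or M512_sorafenib replicate 2 or 3, and MRPL45 without any 1 of the M512_DMSO libraries or M512_sorafenib replicate 1 or 2. Without M512_sorafenib replicate 2, both were lost (0.74, adjusted p 0.0718, and -0.62, adjusted p 0.127), and 2 others were called in their place, MRPL46 (-1.13, adjusted p 0.00506) and MRPS30 (1.02, adjusted p 0.0451). With total counts in place of TMM, 5 members were called, all lower (MRPL45, MRPL46, MRPL49, MRPS7 and MRPS27), and MRPL44 was not (0.55, adjusted p 0.143). On that scale 8.16% of all genes were called lower and 3.49% higher, against 6.49% and 0% of members. The replicate block gave 3 calls, with MRPL46 (-0.78, adjusted p 0.0338) beside the former 2.

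The medians in M512 were 0.11 for the large and 0.00 for the small subunit, against -0.03 for all genes. Without overlap there were 10 members higher and 5 lower (13% and 6.49%), against 13.6% and 16.3% of genes. The unadjusted edgeR p was under 0.05 for 8 higher and 6 lower, or 10.4% and 7.79%, against 12.2% and 12% of genes. With total-count scaling the median of all genes moved from -0.03 to -0.22, and the medians of the members turned to -0.07 for the large and -0.20 for the small subunit. In MC and M222 the all-gene median moved to -0.12 and -0.14, and the large-subunit medians to -0.09 and 0.01. The direction of the members at 24 h is therefore relative to the TMM scale.

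**Figure D3:**
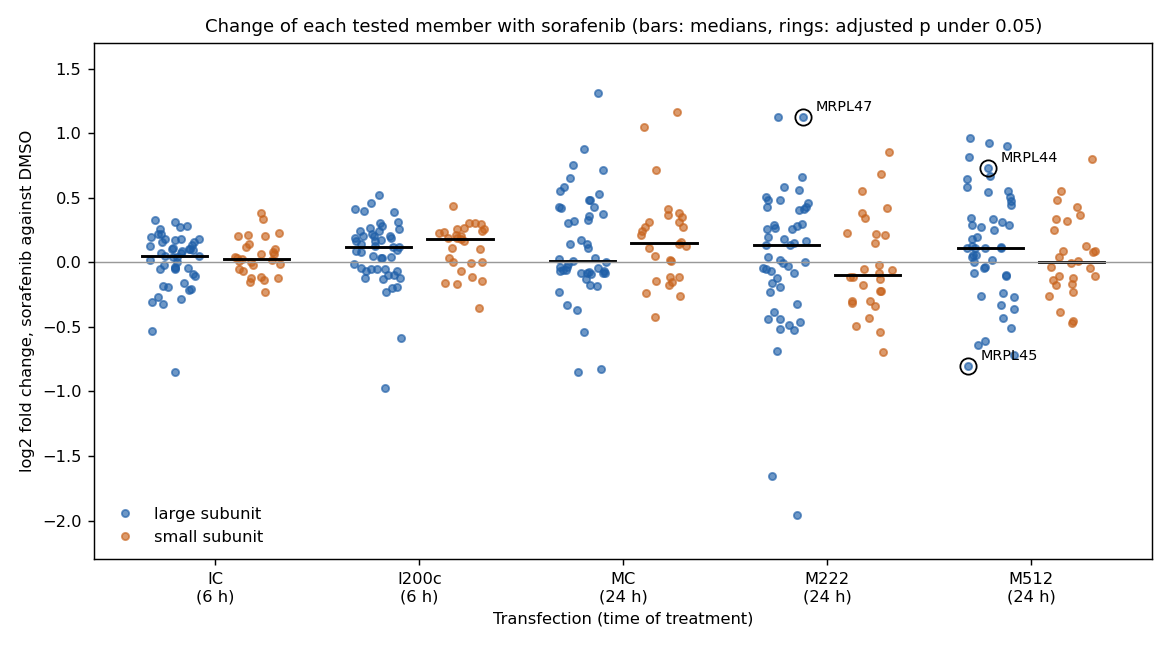
The log2 fold change of each of 77 tested members with Sorafenib in the 5 transfections, large subunit in blue and small subunit in orange. Bars are medians and rings mark the 3 calls, MRPL47 in M222 and MRPL44 and MRPL45 in M512; the spread of the points is wider at 24 h than at 6 h.

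The 5 Sorafenib comparisons share no library. Of 77 members, 14 (18.2%) had a value above 0 in all 5, against 11.6% of 12538 genes tested in all, and 1 (1.3%), MRPL17, had a value below 0 in all 5, against 11.6%. The 14 were MRPL1, MRPL2, MRPL15, MRPL18, MRPL21, MRPL22, MRPL34, MRPL35, MRPL44, MRPL48, MRPS5, MRPS6, MRPS18B and MRPS30. They held the most abundant member, MRPS18B (0.20, 0.11, 0.35, 0.15 and 0.25 in IC, I200c, MC, M222 and M512), and MRPL22, which lines the exit tunnel (0.10, 0.27, 0.48, 0.29 and 0.18). MRPS30 was at 0.12, 0.20, 1.05, 0.68 and 0.80. Except for MRPL44 in M512, none of these values passed the edgeR test, and members are not independent of each other, since they come from the same libraries.

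MRPS30 and MRPL32 were singled out after their values were seen, as the members nearest to a call in several comparisons. MRPL32 matures only after cleavage by the m-AAA protease and takes part in assembly of the large subunit. It was 16.9, 14.7 and 8.1 CPM in MC_DMSO and 29.3, 26.1 and 42.6 CPM in MC_sorafenib. These did not overlap. In IC, at 6 h, it was 24.7, 22.5 and 34.4 CPM in DMSO and 14.6, 20.6 and 21.1 CPM in Sorafenib, so the order was the reverse. The changes were 1.31 at 24 h and -0.53 at 6 h. Their difference in the control transfections was 1.82 (SE 0.41, 95% interval 0.96 to 2.68, adjusted p 0.0727 by edgeR with Benjamini-Hochberg adjustment, unadjusted p 0.00032), the highest of all members. Here edgeR called 0 members and 0.216% of 12500 genes. At an unadjusted edgeR p under 0.05 there were 6 members, 5 higher and 1 lower (6.49% and 1.3%, against 7.17% and 6.5% of genes). DESeq2 called MRPL32 in this comparison (adjusted p 0.00455), and so did edgeR without MC_DMSO replicate 2 (1.90, adjusted p 0.0456) or MC_sorafenib replicate 2 (1.97, adjusted p 0.026). Time and the kind of control oligonucleotide changed together here and cannot be told apart. In M222 its DMSO libraries were spread from 7.45 to 36.4 CPM, and without the highest of them, replicate 1, its change moved from 1.13 to 2.07 and was called (adjusted p 0.0158).

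**Figure D4:**
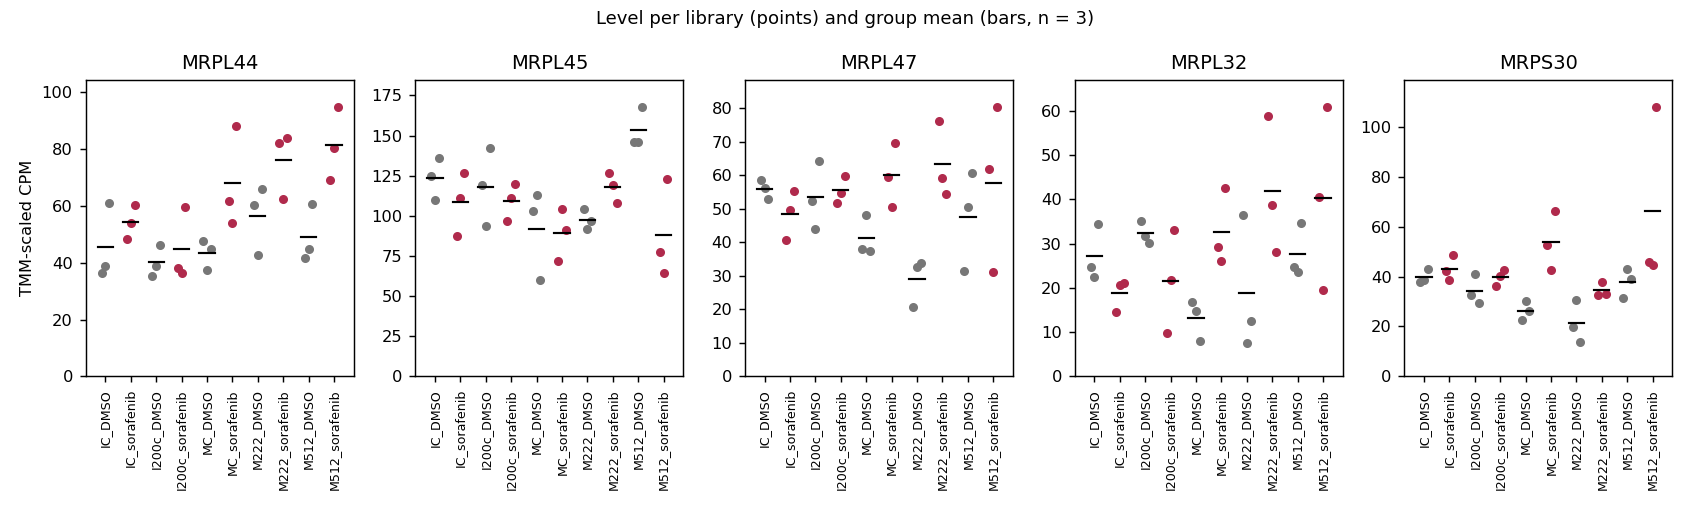
TMM-scaled CPM of MRPL44, MRPL45, MRPL47, MRPL32 and MRPS30 in each of the 30 libraries, with grey points for DMSO, red points for Sorafenib and bars for group means (n = 3). The M512_DMSO points of MRPL45 (146 to 168 CPM) lie above all other DMSO points, and the M222_DMSO points of MRPL47 (20.7 to 33.8 CPM) are low but overlap those of M512_DMSO.

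Of the members chosen for their known roles, MRPL44 alone was called. MRPL12, the stalk protein that also binds the mitochondrial RNA polymerase, ranged from 11.3 to 46.9 CPM over the libraries, and its changes with Sorafenib were between -0.48 (M222) and 0.10 (IC). MRPL58, a peptidyl-tRNA hydrolase that frees stalled ribosomes, was at 24.5, 47.4 and 32.1 CPM in M222_DMSO and at 45.5, 57 and 62.1 CPM in M222_sorafenib, with a small overlap (0.66, adjusted p 0.189 by edgeR with Benjamini-Hochberg adjustment). MRPL3 and MRPL11 stayed between -0.16 and 0.32 in all 5 comparisons. MRPS12, a protein of the decoding centre, was between -0.30 and 0.03, and MRPS16 between -0.11 and 0.26. MRPS27, a pentatricopeptide repeat protein, was at -0.47 in M512 (adjusted p 0.113), where M512_sorafenib replicate 2 had 68.1 CPM and the other 2 libraries had 116 and 105. MRPS34 had a low library in several groups, such as 20.8 CPM beside 77.6 and 68.3 in MC_sorafenib, and none of its changes with Sorafenib passed. MRPS6 stood between 0.21 and 0.38 in every transfection, and MRPS18A and MRPS18C between -0.70 and 0.33.

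The mimics were compared with MC to ask whether the members moved without the drug. Against MC_DMSO, M512_DMSO had higher summed levels of the large subunit, 3572, 3595 and 3939 CPM against 3046, 3322 and 3195. The groups did not overlap. The same was seen for all members as a share of total counts, 0.614% to 0.659% against 0.542% to 0.605%. By mean summed CPM of all members, MC_DMSO was the lowest of the 10 groups, at 5480 CPM. The means of the other DMSO groups were 6238 CPM in M512_DMSO and 6084 in M222_DMSO, and at 6 h 5985 in IC_DMSO and 5684 in I200c_DMSO. Whether the gap came from M512_DMSO or from a low MC_DMSO was not tested. Of single members, 27 of 77 (35.1%) were higher without overlap and 2 (2.6%) lower, against 11.1% and 10.3% of genes. On total counts, a scale added after the values were seen, these were 20 (26%) and 4 (5.19%), against 9.57% and 12%. The medians were 0.17 for the large and 0.19 for the small subunit, with -0.01 for all genes. No member was called by edgeR, where 0.264% of genes were called higher and 0.37% lower, nor by DESeq2. At an unadjusted edgeR p under 0.05 there were 12 members higher and 2 lower (15.6% and 2.6%), against 5.32% and 5.13% of genes.

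The members with the largest values in this comparison were MRPS22 (1.25), MRPL39 (1.1) and MRPL32 (1.05). MRPS22 and MRPL39 each had MC_DMSO replicate 3 as their lowest library, at 4.05 and 0.868 CPM. MRPS15 stood at 93.3, 112 and 99.7 CPM in M512_DMSO and at 59.9, 72.5 and 54.8 CPM in MC_DMSO, with no overlap (0.69, unadjusted edgeR p 0.00418, adjusted p 0.185). In Sorafenib it was at 86.7, 116 and 178 CPM in M512 and at 69.7, 73.2 and 82.1 CPM in MC (0.74, adjusted p 0.14). This was the one member with an unadjusted p under 0.01 in both. DESeq2 called it in Sorafenib (0.76, adjusted p 0.0449).

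The comparison of M222_DMSO with MC_DMSO rests on the same control libraries. The large subunit summed to 3426, 3655 and 3649 CPM in M222_DMSO, above all MC_DMSO libraries, and the medians were 0.18 and 0.19. No member was called, as no gene was (0% of 13244), and DESeq2 called none. The unadjusted edgeR p was under 0.05 for 4 members higher and 1 lower (5.19% and 1.3%, against 2.28% and 3.28% of genes). What M222 and M512 show against MC in DMSO is not independent.

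In Sorafenib, fewer members lay apart without overlap between M512 and MC than in DMSO, but the large-subunit median was 0.17 in both. The SD of the summed large subunit was 437 CPM in M512_sorafenib and 206 CPM in M512_DMSO. The part of this spread in the overlap was not tested. No member was called by edgeR, where 0.0378% of genes were called higher and 0.317% lower, and without overlap there were 7 higher and 3 lower (9.09% and 3.9%), against 6.49% and 7.41% of genes. The unadjusted edgeR p was under 0.05 for 6 higher and 1 lower (7.79% and 1.3%, against 4.81% and 6.25% of genes). The lower one was MRPS35, at 48.5, 59.3 and 71.1 CPM in M512_sorafenib and 81.4, 95.7 and 120 CPM in MC_sorafenib, with no overlap (-0.75, SE 0.21, adjusted p 0.118 by edgeR, 0.0397 by DESeq2, both with Benjamini-Hochberg adjustment). The medians were 0.17 for the large and 0.07 for the small subunit. M222 and MC in Sorafenib gave medians of 0.06 and -0.05 and no call by edgeR or DESeq2 (0% of genes by edgeR). At an unadjusted edgeR p under 0.05 there were 4 members higher and 3 lower (5.19% and 3.9%, against 2.06% and 3.98% of genes).

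Members with a site of the transfected mimic had lower medians than the others, which is given as a description with no test. Against MC in DMSO, the 15 members with a miR-512-3p site had a median of 0.03 in M512 (range -0.57 to 0.64, 7 below 0), and the 62 without one had 0.18. In Sorafenib, 8 of the 15 were below 0 and their range was -0.44 to 0.18, again beside a median of 0.18 for the others. MRPS10, whose site is printed above, had the lowest value of all members in DMSO (-0.57, unadjusted edgeR p 0.0138, adjusted p 0.292). MRPL30, which also carries a miR-512-3p site, was at 56.8, 49.2 and 75.8 CPM in M512_DMSO and at 87.3, 90.9 and 80 CPM in MC_DMSO, with no overlap (-0.52, unadjusted edgeR p 0.0129, adjusted p 0.287). The 15 carriers have a median annotated 3′ UTR of 2797 bases and the other 63 members one of 326 bases, and the part of UTR length in these medians was not tested.

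Only 2 members carried the site of miR-222-5p. MRPL16, with its site 28 bases into the UTR, was at 16.4, 29.6 and 16.8 CPM in M222_DMSO and at 47.7, 39.1 and 30.4 CPM in MC_DMSO. The groups did not overlap (-0.92, SE 0.33, unadjusted edgeR p 0.00927, adjusted p 0.653), and this was the lowest value of the 77 members there. In Sorafenib it was at 22.3, 36.1 and 13 CPM in M222 and 31.2, 41.8 and 37.4 CPM in MC, with an overlap (-0.65, unadjusted edgeR p 0.0551, adjusted p 0.834). MRPL30 was at 79.8, 93.4 and 83.6 CPM in M222_DMSO and 87.3, 90.9 and 80 CPM in MC_DMSO (-0.01, 95% interval -0.41 to 0.38), and in Sorafenib at 66.2, 76.3 and 54.9 against 81.7, 94.3 and 87.7 CPM, with no overlap (-0.44, unadjusted edgeR p 0.0341, adjusted p 0.773). The other 75 members had medians of 0.19 and 0.03.

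**Figure D5:**
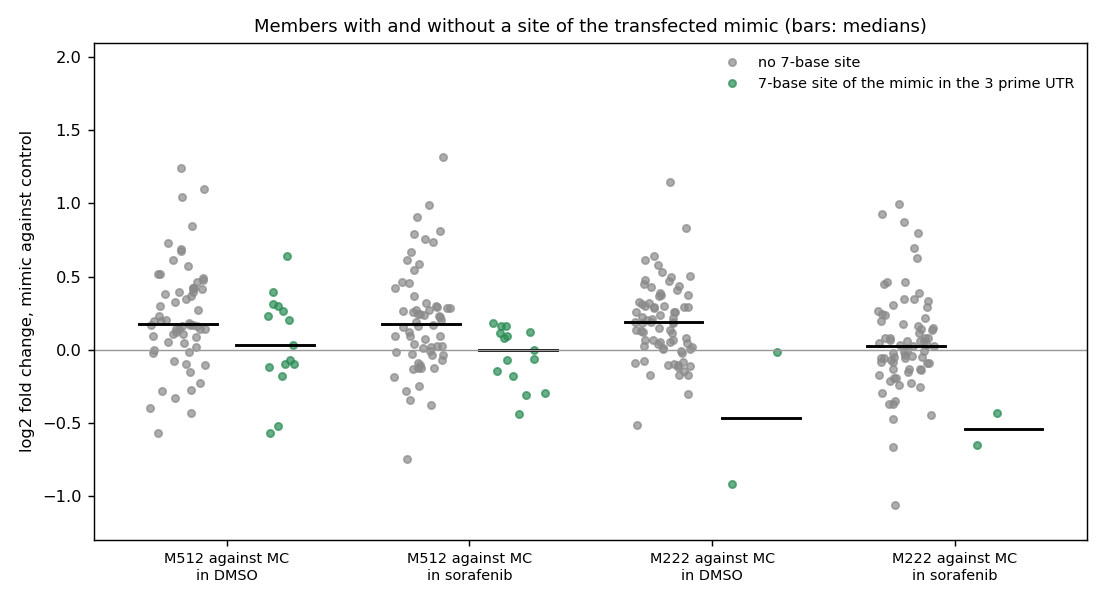
The log2 difference of each tested member between a mimic and MC, in DMSO and in Sorafenib, for members with (green) and without (grey) a site of that mimic in the annotated 3′ UTR. Bars are medians. Both carriers of the miR-222-5p site lie below 0 in DMSO and in Sorafenib, MRPL30 at -0.01 in DMSO.

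For the inhibitor of miR-200c-3p no member was called in DMSO (0.0157% of genes) or Sorafenib (0% of genes). At an unadjusted edgeR p under 0.05, 1 was higher and 2 lower in DMSO (1.3% and 2.6%, against 2.49% and 2.75% of genes). In Sorafenib there were 1 and 1 (1.3% each, against 0.707% and 1.44% of genes). DESeq2 called 0 members in both. The 6 members with a site, MRPL19, MRPL22, MRPL42, MRPS23, MRPS31 and MRPS35, had medians of -0.01 and -0.04, and the other 71 had -0.05 and 0.02. MRPL19 had the highest value of the 6 in DMSO, 81.9, 70.2 and 73.1 CPM in I200c and 58.5, 51 and 61.4 CPM in IC, with no overlap (0.41, unadjusted edgeR p 0.0425, adjusted p 0.926).

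Whether an oligonucleotide altered the effect of Sorafenib was tested as an interaction. No member was called for I200c (0% of genes), M222 (0% of genes) or M512 (0.00755% of genes). The unadjusted edgeR p was under 0.05 for 0, 1 (MRPS11, lower) and 3 members (MRPL54 higher, MRPL19 and MRPL45 lower), and DESeq2 called 0 in each. Of all genes, that p held for 1.43% higher and 1.81% lower in I200c, 0.951% and 1.01% in M222, and 2.37% and 2.67% in M512. These tests had wide intervals. In M512 the 95% interval lay within 1 log2 unit for 35 of 77 members, and in M222 for 45, so for the others a difference of that size was not excluded.

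Few genes that work with the mitochondrial ribosome were called. The 5 proteins of the small or large subunit that carry other symbols, DAP3, PTCD3, AURKAIP1, CHCHD1 and GADD45GIP1, had no call with Sorafenib in any transfection. Of 29 genes for assembly and rRNA modification, 2 were called higher in I200c, where 0.911% of all genes were. These were MTERF4 (0.96, adjusted p 0.00748), which guides rRNA methylation, and FASTKD2 (0.71, adjusted p 0.0364). In M222 and M512 1 was called lower, DDX28, an RNA helicase of large-subunit assembly (-1.91, adjusted p 0.00794, and -1.47, adjusted p 0.021, all by edgeR with Benjamini-Hochberg adjustment). Of all genes, 1.56% were called lower in M222 and 4.62% in M512. None of 15 translation factors or 20 genes of aminoacyl-tRNA formation (synthetases and the amidotransferase genes QRSL1, GATB and GATC) was called in any of the 5 comparisons. Nor was any of 10 transcription factors and coactivators such as NRF1 and GABPA, or of 10 genes of mitochondrial DNA transcription and maintenance. The genes of aminoacyl-tRNA formation had medians of -0.18, -0.23 and -0.25 in MC, M222 and M512, while the transcription factors and coactivators had 0.17, 0.43 and -0.07.

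Markers of the hepatic state moved beside these members at 24 h. The summed level of the 9 hepatic markers was 16200 to 17200 CPM in M512_DMSO and 9100 to 11000 CPM in M512_sorafenib. Of the 9, 4 were called lower in M512 (AFP, APOB, HNF4A and ALB), where 4.62% of all genes were. In M222 there were 2 (APOB and HNF4A), where 1.56% of all genes were called lower. In MC none was called, and the sums were 12400 to 14100 and 8840 to 11000 CPM. The markers of other liver cells, mostly ACTA2, summed to 51.8 to 57.8 CPM in M512_DMSO, 86.5 to 119 CPM in MC_DMSO and 29.1 to 44.9 CPM in M512_sorafenib. FGB, a hepatic marker, and ACTA2 were lower in M512_DMSO than in MC_DMSO (-1.02, adjusted p 0.00559, and -1.27, adjusted p 0.00243, by edgeR with Benjamini-Hochberg adjustment). The medians of their lists were above 0, at 0.14 for the 9 hepatic markers and 0.27 for the 3 tested markers of other liver cells. The sum of the latter list was lower in M512_DMSO, as ACTA2 was. Next to ACTA2 in level in that list were CD68 and COL1A1, with means of 4.47 and 2.83 CPM over the 30 libraries. The part of these shifts in the values of the members was not tested.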

How the data were processed

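HepG2 messenger RNA was sequenced from QuantSeq 3′ FWD libraries (350 ng of RNA, 15 to 19 PCR cycles, 65 sequencing cycles). The authors trimmed the reads, mapped them to GRCh38 with STAR and counted them per gene with HTSeq in the Bluebee pipeline. DRAGEN and DESeq2 are also named in the submitters' processing notes. Annotation release, strand setting and molecular identifiers are not given in the sources used here. The deposited table holds raw counts for 60107 genes. Another 92 lines named no gene, held 3 counts (1.51e-06%) and were left out. A deposited table of normalised values served one check only. It equalled the counts divided by median-ratio factors set per transfection, to within 5e-04, and no result was taken from it.

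Differences were tested by quasi-likelihood in edgeR 4.0.16 (R 4.3.3) after filterByExpr and TMM. Separate fits held the 12 libraries of 6 h, the 18 of 24 h and the 12 control libraries (12738, 13244 and 12500 genes, biological coefficient of variation 0.241, 0.356 and 0.259). Tests were two-sided with Benjamini-Hochberg adjustment over all genes of a fit, and a gene was called at an adjusted p under 0.05. The script was tested on simulated data. Total counts were 3938764 to 9657063 per library, and the precision of a single library is limited by them.

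Alternatives were other scalings, no filter, DESeq2 1.42.0, a replicate block, fits of 6 libraries and the omission of each library. The members and lists were chosen with earlier results of these data known. Named members were those called, those with a seed site (at most 4 per miRNA), the 2 highest and 2 lowest of each subunit, the MRPS18 paralogs and 12 genes picked for their roles. The correlation of deviations between libraries with the same replicate number was 0.0605 to 0.457 in IC, 0.0233 to 0.359 in I200c, -0.25 to 0.196 in MC, 0.159 to 0.232 in M222 and -0.0638 to 0.305 in M512, so among the Sorafenib comparisons numbers were taken as pairs in M222 alone. Between MC and M222 in DMSO it was 0.376, 0.322 and 0.381, so these were taken as pairs too, and in the other 5 comparisons of oligonucleotides it was under 0.1 for at least 1 number. The main fits held no term for pairs, so p-values not named as from the replicate block are unpaired, also in M222. That block was an alternative over all libraries of a fit, including those whose numbers were not taken as pairs. Symbols, positions and UTRs came from GENCODE 44, and promoters and miRNAs from RefSeq (GRCh38.p14).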

Additional observations from a re-analysis of the deposited data

How the results depend on the processing

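The count of members called was 0 under every alternative in IC, in the comparisons of I200c with IC, of M222 with MC, and in the 3 interactions with an oligonucleotide. Elsewhere it moved. DESeq2 called 1 member in I200c, 1 in MC, 2 in M512 against MC in Sorafenib and 1 in the time interaction. Without the filter there were 4 in MC, 2 in M222, 1 in M512, 2 and 1 in M512 against MC (DMSO and Sorafenib) and 3 in the time interaction. Total counts gave 0 in M222 and 5 in M512, and the fit of the 6 libraries of M512 alone gave 0. Leaving out 1 library gave 0 to 1 in I200c, MC, M222 and the time interaction and 0 to 3 in M512. With the replicate block there were 3 calls in M512 and 1 in M222, where the numbers pair the libraries. No count of another comparison changed, and that of M222 against MC in DMSO, paired as well, stayed 0. Except for total counts in M512, the shares of all genes called in these settings are not given here. The counts are therefore not set against all genes.

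Medians of the large and small subunit moved with total counts to 0.087 and 0.148 in I200c, -0.094 and 0.043 in MC, 0.009 and -0.196 in M222, and -0.067 and -0.203 in M512. Without 1 library, that of the small subunit was 0.029 to 0.098 in IC (highest without IC_sorafenib replicate 2), 0.090 to 0.159 in I200c, 0.107 to 0.240 in MC (highest without MC_DMSO replicate 3), -0.159 to 0.021 in M222 and -0.058 to 0.091 in M512 (highest without M512_sorafenib replicate 1). That of the large subunit was 0.040 to 0.163 in I200c (lowest without I200c_DMSO replicate 1), 0.035 to 0.1 in MC (highest without MC_sorafenib replicate 1) and 0.036 to 0.205 in M222 (lowest without M222_sorafenib replicate 3, highest without M222_DMSO replicate 2). Placing MRPS18A and MRPS30 in the large subunit and leaving out MRPS36, chosen after seeing the data, moved no median by over 0.03, and no alternative moved the ratio of the subunits by its SD. Of 1800 alternative values of 31 named members, 1718 kept direction, size and side of the threshold and 0 reversed. The cause of these shifts was not tested.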
